A study of Homo sapiens with 16 samples.

Results

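The early response of CAL51 cells to the higher dose of CC-671 was read from 5 RNA-seq libraries of the 16 in the series. CAL51 is a triple-negative breast cancer line, described in the labels as near-diploid with a tetraploid fraction, and every library came from cells at passage 10 in serum-containing DMEM. The members were taken from the sample titles: 3 libraries of cells given 10 µM CC-671 for 6 h and 2 libraries of cells given only the solvent DMSO for 6 h. Cells given 3 µM for 6 h (3 libraries) served to show the dose dependence, and cells given 10 µM (3) or DMSO (2) for 24 h showed what came later. The labels name no genetic change and no agent beside these. Libraries of a group are named as biological replicates in the labels and all come from 1 cell line, so a p-value here reflects the spread between cultures of that line only.

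CC-671 was made as an inhibitor of the protein kinases TTK and CLK2. TTK (also called MPS1) works at kinetochores, where it starts the spindle assembly checkpoint that holds anaphase until every chromosome is attached. CLK2 and its relatives CLK1, CLK3 and CLK4 phosphorylate SR proteins, the splicing factors that gather in nuclear speckles and mark exons for splicing. Cells in which SR proteins are less phosphorylated splice many introns differently, and transcripts that keep an intron are often degraded or held in the nucleus.

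After 6 h at 10 µM, most measured genes had changed. Of 22007 genes tested, 14870 (67.6%) passed an adjusted p of 0.05 in edgeR's quasi-likelihood test, 7484 (34.0%) higher and 7386 (33.6%) lower than with DMSO. Changes of at least 2-fold were called for 2362 genes upward (10.7%) and 1489 downward (6.77%). All treated libraries lay on one side of both DMSO libraries for 16408 genes (74.6%), among them 14635 (98.4%) of the genes that changed. The median log2 fold change over all genes tested was 0.013, with quartiles of -0.40 and 0.39, and the gene lists are read against these values.

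Large rises and large falls sat at different levels of expression. Among the 7630 genes that averaged under 1 CPM (read pairs of a gene scaled to a common library size) over all 16 libraries, 1801 rose at least 2-fold and 563 fell at least 2-fold. Among the 7592 genes between 10 and 100 CPM the order was the other way, with 110 rises and 586 falls of that size. Among the 2485 genes at 100 CPM or more, 13 rose and 79 fell at least 2-fold, although 2089 of them (84.06%) had changed by some amount. Under a filter that kept only genes with at least 1 CPM in 5 libraries, 727 rises and 826 falls of at least 2-fold were called. The filters and the averages used treated libraries too, so genes near silent with DMSO could enter through groups where they were high. How far this shaped the counts of rises at low level was not tested.

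**Figure D1:**
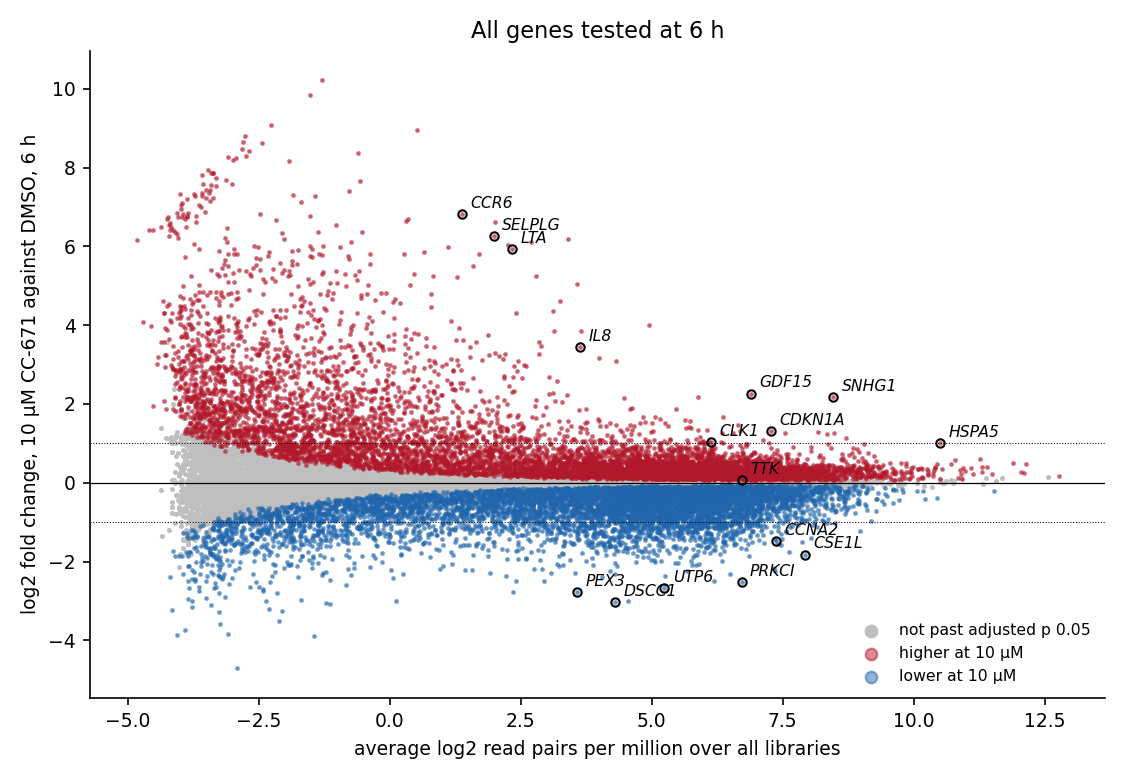
Each point is 1 of the 22007 genes tested. The horizontal axis is the average log2 CPM over all libraries, the vertical axis the log2 fold change of 10 µM CC-671 against DMSO at 6 h; red and blue points passed an adjusted p of 0.05 and dotted lines mark 2-fold. Rises above 4 on the log2 scale lie mostly left of the middle of the level axis, and TTK sits close to 0.

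The 5 libraries held 110206660 to 123789361 read pairs counted at genes, and their scaling factors ran from 0.963 to 0.981, so depth differed little between the groups. On log2 CPM the correlations within a group were 0.994 to 0.995 and those between groups 0.963 to 0.966. Of 7 epithelial markers, KRT8, KRT18, KRT19 and EPCAM were abundant in all 5 libraries, and CDH1 was lower, at 34.65 to 43.0 CPM. KRT7 stayed at or under 0.492 CPM. CLDN4 rose from 1.74 and 1.79 CPM with DMSO to 6.30, 6.26 and 6.87 CPM at 10 µM (log2 fold change 1.87, adjusted p = 4.9e-17). The summed level of that list was 1806 and 1827 CPM with DMSO and 1797, 1886 and 1839 CPM at 10 µM. ESR1 and PGR, the oestrogen and progesterone receptors, stayed at or under 0.034 CPM in the DMSO and treated libraries. ERBB2, the third receptor that defines triple-negative tumours, was not near 0: it measured 189 and 178 CPM with DMSO and 88.2, 84.7 and 91.0 CPM at 10 µM (log2 fold change -1.06 ± 0.036 SE, adjusted p = 5.1e-20). Of 10 leukocyte markers, MS4A1 and NKG7 had no count in any of the 5 libraries, CD3E, CD3D and CD68 stayed at or under 0.019 CPM, and the list summed to 10.7 CPM in both DMSO libraries and 12.1, 11.4 and 12.3 CPM after treatment. The mesenchymal list summed to 1947 and 2214 CPM with DMSO and 2248, 2109 and 2327 CPM at 10 µM, the fibroblast list to 289.8 and 278 CPM with DMSO and 328, 339 and 336 CPM at 10 µM, and the endothelial list to 13.3 and 12.3 CPM with DMSO and 10.7, 11.5 and 11.1 CPM at 10 µM. In RNA from whole cultures, fewer cells of a kind and less RNA per cell cannot be told apart.

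TTK itself did not pass the test. It measured 102 and 100.3 CPM with DMSO and 101, 104 and 112 CPM at 10 µM, and the groups overlapped (log2 fold change 0.068 ± 0.043 SE, adjusted p = 0.172). It passed in 1 of 13 other analyses, a filter for at least 1 CPM in 5 libraries (0.11, adjusted p = 0.0184). All 4 CLK genes rose. CLK4 went from 12.7 and 13.4 CPM to 34.2, 34.1 and 31.4 CPM (1.35 ± 0.046 on the log2 scale, adjusted p = 7.25e-20) and CLK1 from 41.9 and 44.9 to 88.5, 91.3 and 84.4 CPM (1.02 ± 0.042, adjusted p = 3.04e-18). CLK3 gained 0.76 ± 0.033 (adjusted p = 1.53e-17). CLK2, the named target, moved least, from 51.7 and 52.1 to 58.7, 52.5 and 64.0 CPM (0.17 ± 0.060, adjusted p = 0.0202), and its call was lost in 5 of 13 other analyses: without either DMSO library (adjusted p = 0.122 without replicate 1 and 0.0829 without replicate 2), without treated replicate 1 (0.0627) or 3 (log2 fold change 0.089, 0.105), and in the fit to the 2 groups alone (0.068).

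The SR protein genes split by member. Of 14 tested, 5 rose and 7 fell, with a median of -0.10. TRA2B, a splicing activator that binds GAA-rich exons, rose from 388 and 383 to 704, 734 and 682 CPM (log2 fold change 0.87 ± 0.033 SE, adjusted p = 7.64e-19), and TRA2A (0.72) and SRSF11 (0.70) rose with it. SRSF7, a shuttling SR protein that also acts in RNA export, fell from 288 and 286 to 117, 99.8 and 103 CPM (-1.43 ± 0.052, adjusted p = 2.56e-14). SRSF3 (-0.79), SRSF5 (-0.76) and SRSF10 (-0.59) fell less. The groups did not overlap for any of these 7 genes, but for SRSF5 the treated libraries ranged from 68.1 to 99.8 CPM. Reads were counted per gene, so spliced and intron-holding transcripts of these genes share 1 value. Counts outside annotated exons made up 6.71, 6.25 and 7.0% of assignable pairs in the treated libraries and 4.38 and 4.76% with DMSO.

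Of 22007 genes tested, 127 that DMSO cultures hardly expressed (under 0.25 CPM) reached at least 1 CPM in all 3 treated libraries, 63 of them named genes. The 127 were picked for low DMSO values, high treated values and a passed test, so their passing was fixed by the choice. Some could enter the tests only through groups where they were high, and the number of near-silent genes tested is not given here. CCR6, the receptor for the chemokine CCL20, measured 0.0667 and 0.0602 CPM with DMSO and 7.73, 8.28 and 5.98 CPM at 10 µM (log2 fold change 6.83 ± 0.25 SE, adjusted p = 7.47e-16). PTGDR2, a prostaglandin D2 receptor of leukocytes, went from 0.0918 and 0.120 to 10.1, 11.4 and 10.3 CPM (6.63 ± 0.15, adjusted p = 1.55e-23). SELPLG, the ligand by which leukocytes hold P-selectin, went from 0.167 and 0.181 to 13.4, 14.9 and 11.9 CPM (6.26 ± 0.14, adjusted p = 1.85e-23). These genes are known from blood cells. PTPRC, the pan-leukocyte marker, fell from 9.98 and 9.88 to 8.54, 7.80 and 9.02 CPM (log2 fold change -0.23, adjusted p = 0.00147). CD14, a monocyte marker, rose from 0.175 and 0.129 to 2.91, 2.89 and 2.51 CPM (log2 fold change 4.17), and LYZ, lysozyme, from 0.0584 and 0.0430 to 0.102, 0.128 and 0.222 CPM (1.54, adjusted p = 0.00885). The part of such cells in these rises was not tested.

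Other large rises belonged to genes of many tissues. LTA, the cytokine lymphotoxin alpha, reached 8.72, 6.85 and 8.49 CPM from 0.117 and 0.146 CPM (log2 fold change 5.92 ± 0.18 SE). CMYA5, a muscle protein of the Z-disc, reached 16.1, 13.8 and 17.0 CPM from 0.25 and 0.224, and BAAT, the liver enzyme that joins bile acids to amino acids, reached 10.2, 10.9 and 8.89 CPM from 0.142 and 0.215. OVGP1, the oviductal glycoprotein, rose by 5.25, DCAF4L1 by 6.11, CCDC13 by 5.03, and ADCY10, the bicarbonate-sensing soluble adenylyl cyclase, by 5.22 on the log2 scale. In each of these genes every treated library lay far above both DMSO libraries. A change from a DMSO mean of at least 1 CPM to under 0.25 CPM in all treated libraries was seen in 1 named gene, CDCA7L, which went from 1.14 and 0.929 CPM to 0.213, 0.228 and 0.241 CPM. With a limit of 0.5 CPM in the treated libraries, 19 genes did so. These counts draw on other genes than the 127 that rose from near silence, so their sizes cannot be compared. The pseudogene PKMP3 (5.51) and the antisense gene ZNF205-AS1 (4.12) also rank among the 15 largest rises, but reads shared with PKM or with the opposite strand cannot be told apart here.

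**Figure D2:**
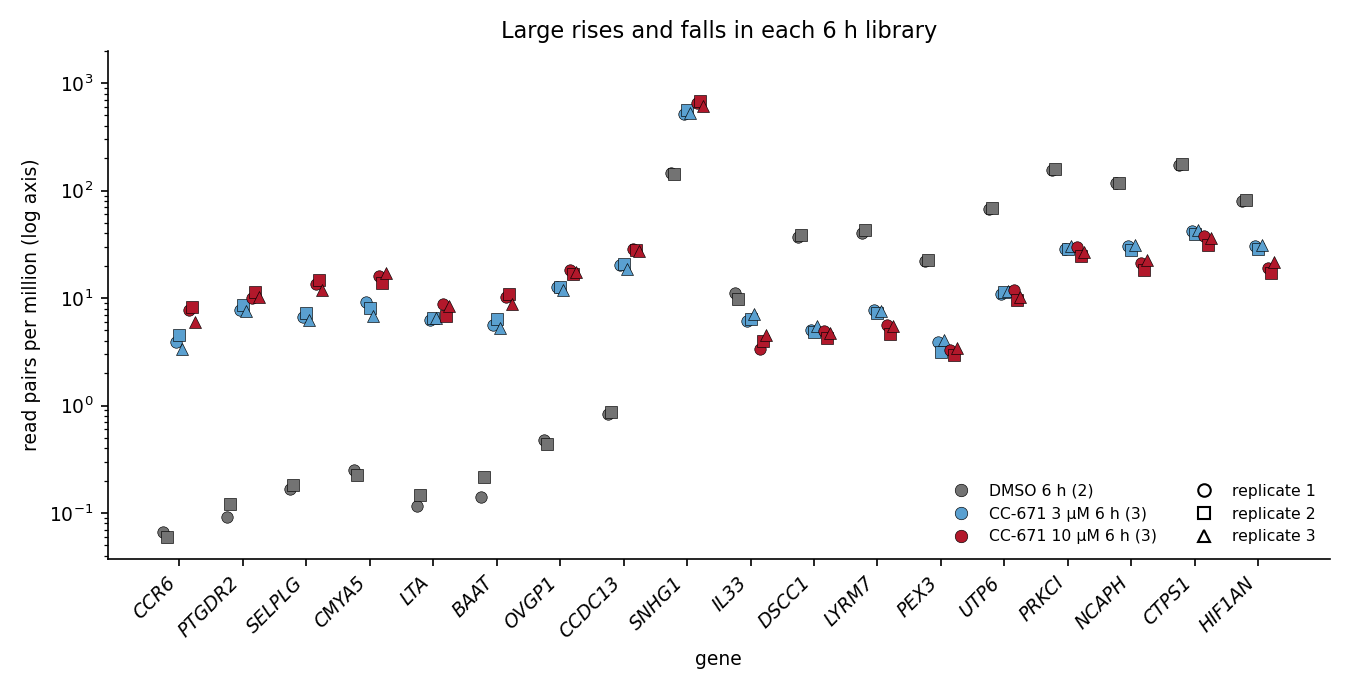
The vertical axis is CPM on a log axis, with 1 column per gene; grey points are DMSO, blue 3 µM and red 10 µM libraries at 6 h, and the marker shape gives the replicate. The 8 genes at the left lie under 1 CPM in both DMSO libraries and above 5 CPM in all 10 µM libraries, and the treated libraries of a dose lie close together.

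Few abundant genes rose strongly. Of 2640 genes with a DMSO mean of at least 100 CPM, 1023 rose and 1215 fell, but 8 rose at least 2-fold and 157 fell at least 2-fold. SNHG1, a host gene of small nucleolar RNAs, gained most, from 145 and 144 to 651, 682 and 618 CPM (log2 fold change 2.17 ± 0.045 SE, adjusted p = 1.1e-22). DDIT4, which restrains mTOR signalling, rose by 1.28, SAT1, the enzyme that starts polyamine breakdown, by 1.12, and RPL27A, a ribosomal protein gene with many processed copies, by 1.26. The splicing genes PRPF38B (1.01) and PNN (0.99) and the translation factor EIF4B (0.98) rose as well.

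The largest falls struck single genes of several machines. DSCC1, a subunit of the clamp loader that helps sister chromatids cohere, fell from 37.1 and 39.0 to 4.91, 4.27 and 4.75 CPM (log2 fold change -3.03 ± 0.055 SE, adjusted p = 2.54e-25). LYRM7, a mitochondrial complex III assembly factor, fell from 40.3 and 42.7 to 5.58, 4.6 and 5.45 CPM (-2.99 ± 0.054), and PEX3, which seats membrane proteins in peroxisomes, from 22.0 and 22.4 to 3.32, 2.94 and 3.42 CPM (-2.78 ± 0.069). In all 3 the DMSO libraries were far above every treated library. Among abundant genes, PRKCI, an atypical protein kinase C of cell polarity, fell from 156 and 158 to 29.6, 24.9 and 27.0 CPM (-2.53 ± 0.045, adjusted p = 6.84e-24). The condensin subunit NCAPH (-2.50), the CTP synthase CTPS1 (-2.32), the SUMO-activating subunit UBA2 (-2.16) and CSE1L, which returns importin alpha to the cytoplasm (-1.83), fell too. The oxygen sensor HIF1AN fell from 79.5 and 81.0 to 19.1, 17.1 and 21.5 CPM (-2.06 ± 0.057).

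Cell division genes fell more often than they rose, and members of 1 complex moved apart. Among all 7592 genes between 10 and 100 CPM, 3747 fell and 2547 rose. Among the 2485 genes at 100 CPM or more, 976 fell and 1113 rose. Of 46 DNA replication genes 30 fell and 9 rose (median -0.31), of 29 repair genes 27 fell and 1 rose (-0.46), of 23 kinetochore genes 15 fell and 5 rose (-0.41), and of 20 cohesion genes 15 fell and 4 rose (-0.33). RFC1, the large subunit of the clamp loader, fell from 168 and 165 to 52.5, 40.7 and 44.2 CPM (log2 fold change -1.86 ± 0.076 SE), and CDC45 of the replicative helicase fell by 1.61. ORC1 of the origin recognition complex rose from 82.2 and 84.7 to 139, 144 and 138 CPM (0.75 ± 0.032), and GINS1 (0.64) and MCM7 (0.43), also of the helicase, rose. Of the repair genes MRE11A, the nuclease of double-strand break repair, fell from 47.2 and 48.9 to 15.3, 12.8 and 14.7 CPM (-1.75 ± 0.053), CHEK2 by 1.56 and FANCC by 1.45. FANCB was the 1 repair gene higher (0.15, adjusted p = 0.0102), a call that was not made without treated replicate 1.

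SPC25, a subunit of the NDC80 complex that grips microtubules, showed the largest fall of the kinetochore list, from 39.9 and 38.4 to 9.06, 9.06 and 9.19 CPM (log2 fold change -2.10 ± 0.047 SE, adjusted p = 1.25e-23). CENPI fell by 1.66, while CENPL (0.42) and MIS12 (0.40) rose. Of 18 spindle checkpoint genes 10 fell and 5 rose: MAD1L1 (-1.34), TRIP13 (-1.32) and BUB1 (-0.85) were among those that fell, and AURKB (0.47) and CDC20 (0.24) among those that rose. The mitosis list held 15 falls and 8 rises of 29 and had a median of -0.082. HMMR, a spindle assembly protein, fell from 91.7 and 90.3 to 21.9, 20.8 and 21.9 CPM (-2.08 ± 0.040), KIF14 by 1.65 and AURKA by 1.01, while the kinesin KIF18A rose from 58.9 and 60.2 to 117, 122 and 124 CPM (1.02 ± 0.038). MKI67 (-0.0026, adjusted p = 0.983) and KIF20A (0.024, adjusted p = 0.635) did not pass. Of 16 cyclin and kinase genes of G1 and S phase 10 fell and 2 rose, with CCNA2, cyclin A2, going from 271 and 275 to 95.1, 96.5 and 104 CPM (-1.47 ± 0.042).

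Genes that build ribosomes had the lowest median of the 30 lists, -0.50, with 20 of 32 lower and 7 higher. UTP6 of the small-subunit processome fell from 67.8 and 68.2 to 11.9, 9.51 and 10.3 CPM (log2 fold change -2.68 ± 0.051 SE), NOC3L from 85.4 and 89.7 to 21.9, 15.8 and 17.4 CPM (-2.25 ± 0.10) and UTP20 by 2.10. UTP3 of the same processome rose (0.51), and the nucleolar proteins NCL (0.083) and FBL (0.088) gained slightly. Peroxisome genes fell in 8 and rose in 5 of 15, with PEX2 at -1.25 beside the fall of PEX3, and PEX11A at 0.85. That split was similar to the one over all 7592 genes between 10 and 100 CPM, of which 3747 fell and 2547 rose. Of 23 cholesterol synthesis genes 15 fell and 4 rose, with a median of -0.11. Its largest fall was MVD (-0.99).

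Targets of p53 rose almost throughout: 29 of 32 were higher and 2 lower, with a median of 0.85. GDF15, a secreted stress hormone, went from 28.7 and 26.6 to 142, 139.7 and 117 CPM (log2 fold change 2.26 ± 0.10 SE, adjusted p = 4.47e-10). CDKN1A, the cell cycle inhibitor p21, went from 63.5 and 66.6 to 155, 170.0 and 159 CPM (1.31 ± 0.042, adjusted p = 5.93e-20), and MDM2, which degrades p53, from 155 and 171 to 377, 385 and 382 CPM (1.23 ± 0.034, adjusted p = 9.43e-22). The groups were far apart for each, and the 3 treated libraries stayed within a narrow band. The death genes BBC3 (1.62) and PMAIP1 (1.23) rose, as did the stress genes GADD45A (1.56), TP53INP1 (1.45) and SESN1 (1.38). The 2 that fell were XPC, a damage sensor of nucleotide excision repair (-0.78), and ACER2 (-0.22). In the BCL2 family 9 of 17 rose and 4 fell, the latter being the survival genes BCL2L2 (-1.06) and BCL2 (-0.51) and the death effectors BOK (-0.68) and BAK1 (-0.20).

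Cytokine and stress genes rose as well, but the treated libraries did not rise alike. IL8, the neutrophil chemokine now named CXCL8, measured 3.47 and 3.83 CPM with DMSO and 86.6, 15.9 and 15.4 CPM in treated replicates 1, 2 and 3. Every treated library lay above both DMSO libraries, and replicate 1 stood far above the other two (log2 fold change 3.43 ± 0.79 SE, adjusted p = 0.00253). Without replicate 1 the log2 fold change was 2.09 (adjusted p = 5.94e-06). IL6, a cytokine of fever and the acute phase, went from 1.32 and 1.07 to 11.4, 4.01 and 3.00 CPM (2.37 ± 0.53, adjusted p = 0.00222), and without replicate 1 gained 1.54. CXCL2, another neutrophil chemokine, measured 1.59 and 1.82 and then 12.3, 3.96 and 3.33 CPM (1.95 ± 0.52, adjusted p = 0.00631, and 1.09 without replicate 1). CXCL1 measured 6.92 and 7.42 and then 25.7, 10.2 and 10.1 CPM (1.10 ± 0.36, adjusted p = 0.0178, and 0.49 without replicate 1).

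Of 21 cytokine genes 14 rose and 2 fell, the median was 0.98, and 10 rose at least 2-fold. Without treated replicate 1, 13 rose and 2 fell, the median was 0.56, and 7 rose at least 2-fold. CCL20, the ligand of CCR6, was more even, at 19.7 and 23.2 CPM with DMSO and 93.4, 79.6 and 60.4 CPM at 10 µM (1.86 ± 0.16, adjusted p = 9.69e-07). LIF (0.79), CXCL5 (0.63) and IL32 (0.54) rose less. IL33, an alarm cytokine stored in the nucleus, fell from 11.1 and 9.74 to 3.34, 4.00 and 4.52 CPM (-1.40 ± 0.10, adjusted p = 1.92e-09), lowest in replicate 1, and CCL2 fell by 0.76. TNF, a master inflammatory cytokine, did not pass (0.984 and 1.07 CPM and 2.93, 1.09 and 1.05 CPM, 0.73 ± 0.39, adjusted p = 0.118). Fitted to the 2 groups alone, where the spread of these libraries is not shared with the others, the rises of IL8 (adjusted p = 0.111), IL6 (0.109), CXCL2 (0.153) and CXCL1 (0.221) were not called. CXCL1 was not called without DMSO replicate 1 (adjusted p = 0.0926) or 2 (0.0678) either.

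**Figure D3:**
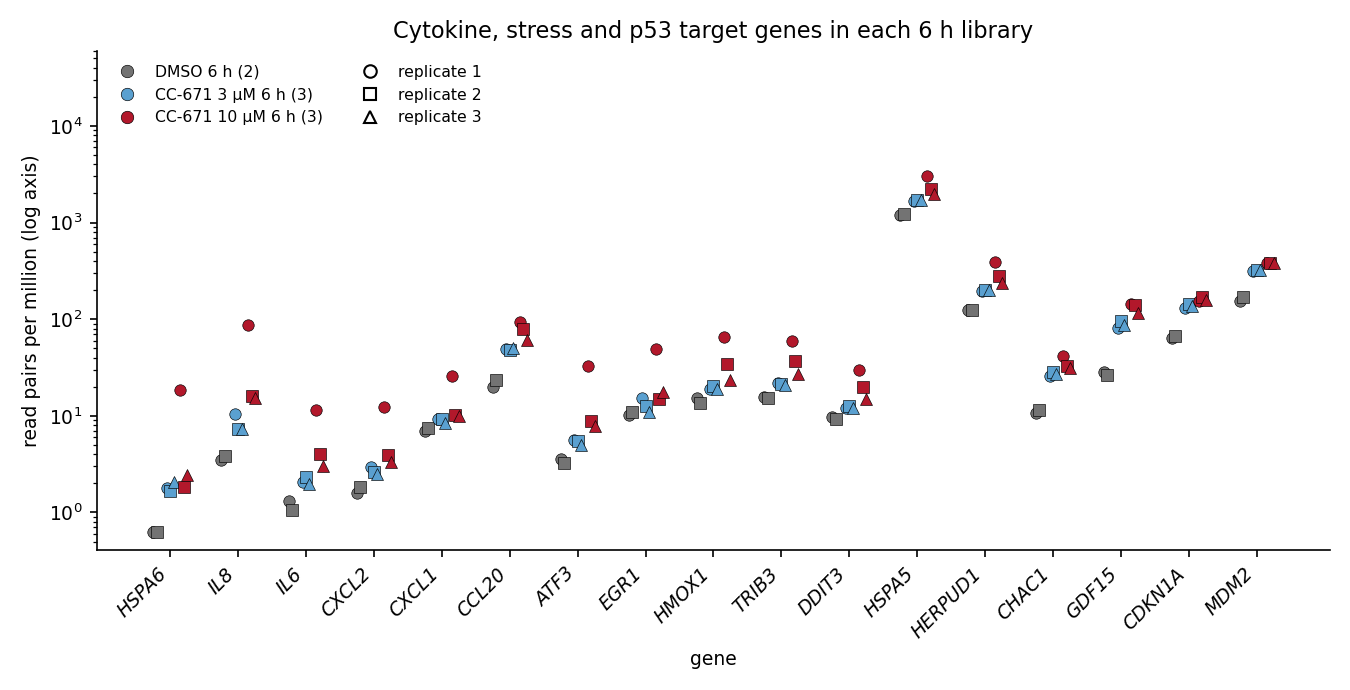
The vertical axis is CPM on a log axis, with 1 column per gene; grey points are DMSO, blue 3 µM and red 10 µM libraries at 6 h, and circles, squares and triangles are replicates 1, 2 and 3. From HSPA6 to DDIT3 the red circle, replicate 1 at 10 µM, lies above the other treated libraries, while for GDF15, CDKN1A and MDM2 the red points lie together.

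Promoters of the 4 cytokine genes given in full are shown because they share letters, and that of CHAC1 for the letters of another factor. Each is the 250 bases before the transcription start, from RefSeq on GRCh38.p14 and not on hg19, the build of the counts. Capitals mark matches to GGNNTTTCC, a kappa-B-like site for NF-kB factors, in the cytokine genes, to TGANTCA, an AP-1 site for FOS and JUN factors, in IL8, and to TGATGNAA, a composite site for ATF4 and C/EBP factors, in CHAC1, read on both strands.
IL8 (chr4:73740319-73740568, plus strand): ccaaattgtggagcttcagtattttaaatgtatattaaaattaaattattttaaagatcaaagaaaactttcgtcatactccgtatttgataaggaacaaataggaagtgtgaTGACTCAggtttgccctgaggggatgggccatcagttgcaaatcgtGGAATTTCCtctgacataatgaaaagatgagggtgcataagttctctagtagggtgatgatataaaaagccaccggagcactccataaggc
IL6 (chr7:22726950-22727199, plus strand): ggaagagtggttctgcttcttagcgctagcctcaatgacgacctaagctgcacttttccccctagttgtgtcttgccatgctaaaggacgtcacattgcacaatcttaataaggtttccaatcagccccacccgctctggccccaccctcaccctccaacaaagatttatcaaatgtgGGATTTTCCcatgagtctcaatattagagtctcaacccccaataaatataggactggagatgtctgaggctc
CXCL1 (chr4:73869143-73869392, plus strand): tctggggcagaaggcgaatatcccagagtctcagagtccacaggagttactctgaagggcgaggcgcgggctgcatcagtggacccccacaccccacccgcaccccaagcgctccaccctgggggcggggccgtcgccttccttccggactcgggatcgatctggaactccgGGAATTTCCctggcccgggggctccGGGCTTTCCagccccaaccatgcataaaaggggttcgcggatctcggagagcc
CXCL2 (chr4:74099196-74099445, minus strand): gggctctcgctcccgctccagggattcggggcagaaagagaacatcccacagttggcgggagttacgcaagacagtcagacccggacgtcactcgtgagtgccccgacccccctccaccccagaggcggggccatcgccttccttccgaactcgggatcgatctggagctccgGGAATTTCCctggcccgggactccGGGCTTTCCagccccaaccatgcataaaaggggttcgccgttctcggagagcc
CHAC1 (chr15:40953221-40953470, plus strand): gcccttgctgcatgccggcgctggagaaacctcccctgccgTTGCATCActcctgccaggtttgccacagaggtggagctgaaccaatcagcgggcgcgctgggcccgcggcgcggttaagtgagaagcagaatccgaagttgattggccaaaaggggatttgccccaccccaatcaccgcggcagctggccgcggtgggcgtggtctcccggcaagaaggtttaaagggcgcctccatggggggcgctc
The kappa-B-like letters lay 91 bases before the start in IL8, 72 in IL6, 78 and 53 in CXCL1, and 77 and 53 in CXCL2, on the plus strand of each gene. They occurred in 11 of 20 cytokine promoters with a RefSeq entry (55%) and in 9 of 18 of the NF-kB list (50%), and in 5.485% of all 35116 promoters of that length. AP-1 letters occurred in 3 of 20 cytokine promoters and in none of 20 immediate early promoters, against 6.573% of all. The composite letters occurred in 3 of 22 ATF4 target promoters, against 3.144% of all. The kappa-B-like letters also stood in CCL20, NFKBIA, CXCL5 and IL32, whose treated libraries were closer together. They were not found in the window of IL1A, which had a wide spread and held AP-1 letters 12 bases before the start. A match is a description of letters, not a measured binding site.

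Immediate early genes, the transcription factors that cells switch on within minutes of a stimulus, rose in 18 of 26 and fell in 1, with a median of 0.63. ATF3, a stress-induced repressor, went from 3.56 and 3.26 CPM with DMSO to 32.7, 8.92 and 7.89 CPM (log2 fold change 2.28 ± 0.58 SE, adjusted p = 0.00463), and EGR1 from 10.3 and 10.9 to 49.3, 15 and 17.6 CPM (1.37 ± 0.44, adjusted p = 0.0168). Replicate 1 was again the high one, and without it ATF3 gained 1.29 and EGR1 0.61. FOS measured 10.2 and 12.7 and then 23.5, 15.4 and 17.3 CPM (0.71 ± 0.17, adjusted p = 0.00351). NR4A1 (1.44), FOSB (1.29, and 0.69 without replicate 1) and FOSL1 (1.15) rose, and SRF fell (-0.21). JUN (0.022, adjusted p = 0.884) and IER2 (-0.037, adjusted p = 0.402) did not pass. Of these genes 10 rose at least 2-fold, and 2 did without replicate 1. In the fit to the 2 groups alone ATF3 (adjusted p = 0.14), EGR1 (0.211), NR4A1 (0.0632), FOSB (0.173) and FOS (0.082) were not called. EGR1 and FOSB also lost their calls without DMSO replicate 1 (adjusted p = 0.0869 and 0.0549) or 2 (0.0694 and 0.0926), and FOS without DMSO replicate 1 (0.0506).

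In the NF-kB list, which holds the subunits and the feedback genes they induce, 13 of 20 rose and 3 fell (median 0.32). ICAM1, an adhesion molecule, measured 47.1 and 43.5 CPM with DMSO and 116, 86.9 and 75.7 CPM at 10 µM (log2 fold change 1.04 ± 0.14 SE, adjusted p = 4.29e-05). NFKBIA, the inhibitor that NF-kB restores, was more even, at 96.4 and 96.0 and then 154, 143 and 136 CPM (0.58 ± 0.039, adjusted p = 2.01e-13). TNFAIP3 (0.91, 0.59 without treated replicate 1, and adjusted p = 0.109 in the fit to the 2 groups alone) and RELB (0.68) rose, NFKB1 did not pass (0.18, adjusted p = 0.0727), and BCL3 (-0.52), NFKBIE (-0.34) and CYLD (-0.31) fell.

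ATF4 is the factor by which cells meet amino acid shortage and protein stress, and of 28 of its targets 21 rose and 5 fell (median 0.49). CHAC1, which breaks down glutathione, went from 10.8 and 11.4 to 41.2, 33.0 and 31.0 CPM (log2 fold change 1.66 ± 0.10 SE, adjusted p = 7.45e-09), with all treated libraries well above DMSO. TRIB3 measured 15.7 and 15.4 CPM and then 59.0, 37.3 and 27.4 CPM (1.41 ± 0.25, adjusted p = 0.00041), and DDIT3, the factor CHOP, 9.83 and 9.34 CPM and then 29.9, 20 and 14.9 CPM (1.18 ± 0.22, adjusted p = 0.000715). In both, the treated libraries were highest in replicate 1. Not every target went along. The asparagine enzyme ASNS gained only 0.18, the serine enzyme PSAT1 did not pass (0.079, adjusted p = 0.065), and the cystine carrier SLC7A11 (91.6 and 110.1 CPM to 62.2, 43.2 and 43.8 CPM, -1.02 ± 0.14) and the proline enzyme ALDH18A1 (-0.87) fell.

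In the endoplasmic reticulum list, which holds chaperones and other genes of the unfolded protein response, 14 of 20 rose and 4 fell (median 0.36). HSPA5, the chief chaperone BiP, went from 1197 and 1218 to 3028, 2246 and 1993 CPM (log2 fold change 1.00 ± 0.13 SE, adjusted p = 4.48e-05, and 0.80 without replicate 1). HERPUD1, of the degradation machinery, went from 126 and 125 to 391, 283 and 234 CPM (1.27 ± 0.16), and DNAJB9 gained 1.12 (adjusted p = 0.0528 in the fit to the 2 groups alone). CANX (-0.22) and EDEM1 (-0.48) fell. The heat shock genes had no common direction, with 7 of 19 higher and 7 lower. HSPA6, an inducible chaperone whose reads may be shared with its paralog HSPA1A, measured 0.634 and 0.628 CPM with DMSO and 18.7, 1.85 and 2.43 CPM at 10 µM (3.61 ± 1.08, adjusted p = 0.0119, and 1.75 without replicate 1), a call lost without DMSO replicate 1 (adjusted p = 0.069) or 2 (0.0671). DNAJB1 (0.63) and BAG3 (0.77) rose, HSPA1A did not pass (0.0081, adjusted p = 0.977), and HSPA8 fell (-0.21). Larger falls in this list were those of HSPA1B (-1.27, adjusted p = 0.000704) and CHORDC1 (-0.70), both values from the fit to the 2 groups alone.

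HMOX1, which degrades heme, led the 9 rises among 21 antioxidant genes of NRF2, of which 5 fell, at 15.2 and 13.7 CPM with DMSO and 65.2, 34.3 and 23.6 CPM at 10 µM (log2 fold change 1.51 ± 0.34 SE, adjusted p = 0.00209, and 0.99 without replicate 1). Classical members did not follow: NQO1 (-0.015, adjusted p = 0.768) and GCLC (-0.026, adjusted p = 0.596) did not pass, and GCLM (-0.93) fell. ME1, malic enzyme, fell from 0.517 and 0.706 to 0.170, 0.292 and 0.268 CPM (-1.33), and the heme transporter SLC48A1 fell from 82.5 and 81.2 to 36.0, 35.5 and 38.7 CPM (-1.16). Metallothionein genes rose in 5 and fell in 1 of 8, none by 2-fold. In the fit to the 2 groups alone HMOX1 (adjusted p = 0.111), HSPA6 (0.179), TRIB3 (0.0669) and DDIT3 (0.0781) were not called.

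The spread among the treated libraries was counted over all genes, as a description without a test. Of 14404 genes averaging at least 1 CPM at 10 µM and 6 h, 37 (0.257%) ranged over at least 1 log2 unit between the 3 libraries, and replicate 1 was the highest in 33 of them. At 3 µM and 6 h no gene of 14305 ranged that far, and at 10 µM and 24 h 4 of 14340 did. The widest were HSPA6, IL8, ATF3, IL6, CXCL2, EGR1, IL1A, TNF, HMOX1, FOSB, NR4A3, DERL3 and CXCL1, together with pseudogenes of mitochondrial genes such as MTND4P12. Of the 37, 17 were in a gene list, 7 of them cytokines and 5 immediate early genes, and 18 had risen against DMSO and 1 fallen. MTND4P12 measured 4.6, 1.36 and 1.55 CPM at 10 µM, but it also differed between the DMSO libraries, at 3.14 and 1.60 CPM. A range of at least 0.5 log2 units between the DMSO libraries was seen in 13 of the 37, none of them in a gene list. Mitochondrial genes took 3.17, 2.58 and 2.88% of counted pairs in the treated libraries and 2.61 and 2.67% with DMSO, and their part in the spread was not tested.

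By list, the median log2 ratio to the DMSO mean in treated replicates 1, 2 and 3 was 1.5, 0.62 and 0.52 for cytokines and 0.97, 0.45 and 0.40 for immediate early genes, and replicate 1 was the highest in 19 of 21 and 24 of 26 genes. For NF-kB genes the medians were 0.40, 0.26 and 0.23, with replicate 1 highest in 17 of 20. ATF4 targets (0.57, 0.51 and 0.34) and the endoplasmic reticulum list (0.45, 0.38 and 0.25) had replicate 1 highest in 20 of 28 and 16 of 20 genes and replicate 3 lowest in 24 of 28 and 20 of 20. Replicate 3 was also the lowest in 15 of 21 cytokines, 15 of 26 immediate early genes and 13 of 20 NF-kB genes, and replicate 1 was the highest in 13 of 15 YAP targets and 13 of 19 heat shock genes. For p53 targets the medians were 0.83, 0.91 and 0.81, with replicate 2 highest in 19 of 32, and heat shock genes as a list stayed near 0 in every library (-0.0088, -0.032 and -0.040). The 3 libraries at 3 µM gave cytokine medians of 0.49, 0.37 and 0.38 and immediate early medians of 0.34, 0.26 and 0.20, below all 3 libraries at 10 µM.

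**Figure D4:**
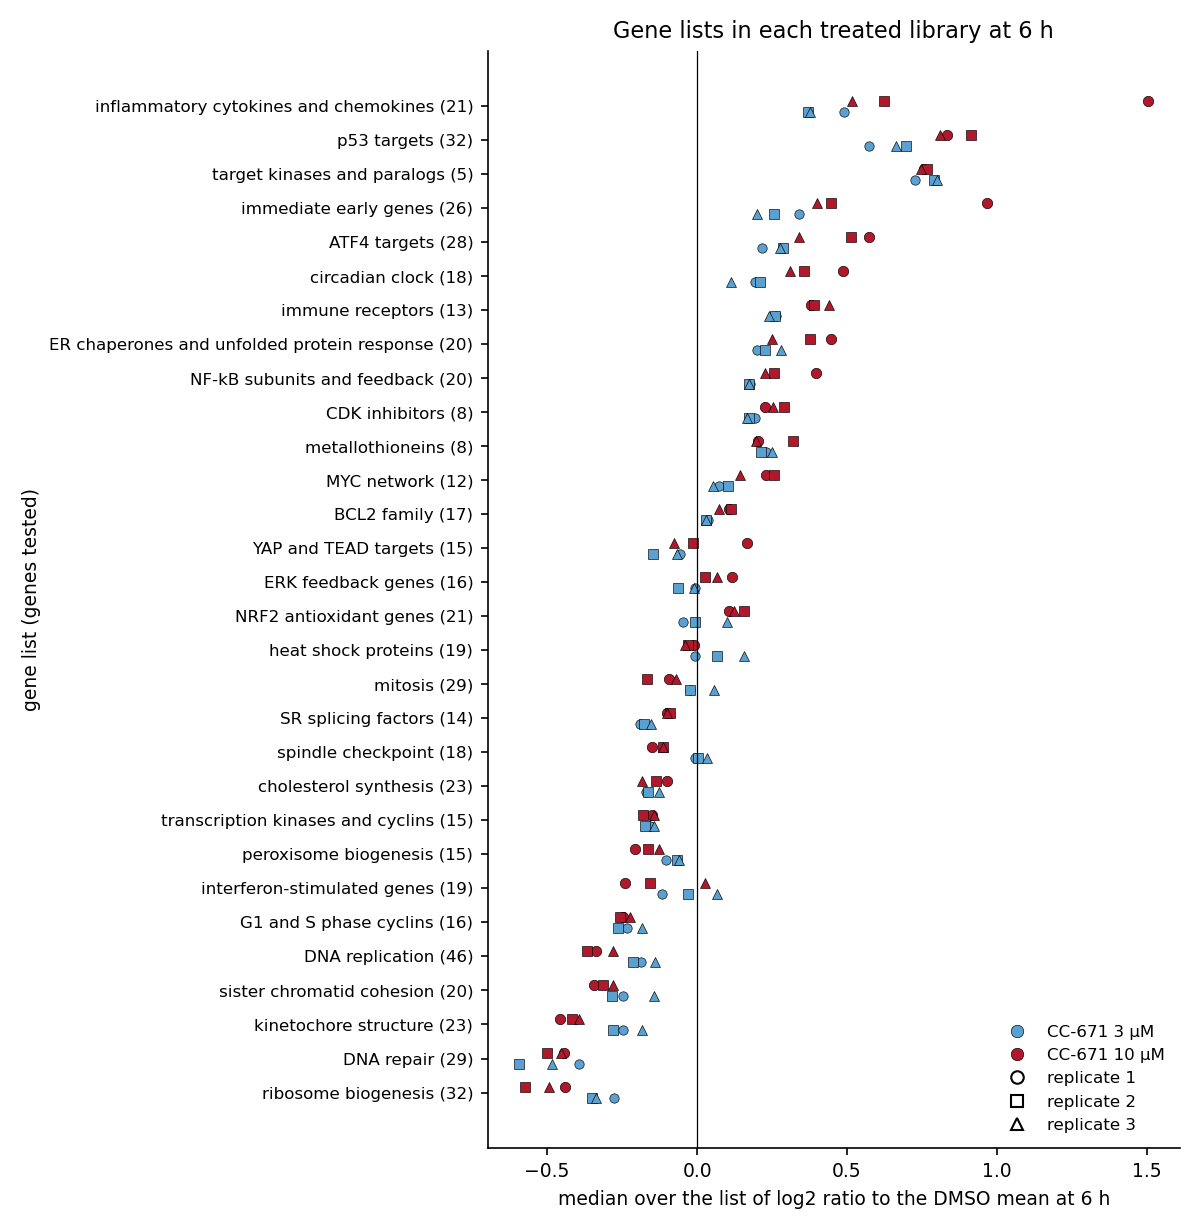
For each of the 30 gene lists the horizontal axis gives the median, over its tested genes, of the log2 ratio to the DMSO mean at 6 h in each treated library; red is 10 µM, blue 3 µM, and circles, squares and triangles are replicates 1, 2 and 3. The red circle stands to the right of the other red points for cytokines (1.5) and immediate early genes (0.97), and the red points of the kinase and heat shock lists lie almost on each other.

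Other lists were mixed. Interferon-stimulated genes rose in 8 and fell in 9 of 19, with IFI27 (0.217 and 0.25 CPM to 1.34, 1.43 and 1.47 CPM, log2 fold change 2.60) against the sensor DDX58 (8.72 and 9.56 CPM to 3.63, 2.81 and 3.39 CPM, -1.48 ± 0.073 SE). Of 12 genes of the MYC network 7 rose and 3 fell. MYC itself did not pass (62.9 and 63.3 CPM and 87.0, 61.8 and 57.1 CPM, 0.12, adjusted p = 0.447), and its antagonists MXD1 (1.07), MXD3 (0.93) and MXI1 (0.82) rose. Replicate 1 held the highest MYC value, and without it MYC was lower than with DMSO (-0.0953, adjusted p = 0.0352). Immune receptor genes rose in 7 and fell in 3 of 13, and CDK inhibitor genes rose in 5 and fell in 2 of 8. Of 18 clock genes 10 rose and 3 fell, with TEF at 0.80, PER1 at 0.64 and CLOCK at -1.08. Of 15 genes of transcription kinases 5 rose and 9 fell, with CDK9 of elongation factor P-TEFb at 1.00 and MNAT1 of the CDK7 complex at -1.45. ERK feedback genes rose in 5 and fell in 5 of 16, and DUSP6 did not pass (0.064, adjusted p = 0.0512). YAP targets rose in 7 and fell in 6 of 15, but in 4 and 6 without treated replicate 1.

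The direct comparison with 3 µM at 6 h asked which changes grew with dose. It called 5480 genes (24.9%), 2649 higher (12.0%) and 2831 lower (12.9%) at 10 µM. With only these 2 groups in the fit, 3420 were called. IL8 was higher at 10 µM, and measured 10.3, 7.38 and 7.30 CPM with 3 µM (log2 difference 2.24, adjusted p = 0.0215, and 0.91 with adjusted p = 0.00411 without replicate 1 of 10 µM). ATF3 (1.63), IL6 (1.54) and HMOX1 (1.09) were also higher, and without that library by 0.65, 0.73 and 0.58. SELPLG, at 6.63, 7.27 and 6.29 CPM with 3 µM, gained 0.99 (adjusted p = 5.82e-10) with no overlap between the doses. ATF4 targets were higher in 21 and lower in 1 of 28, genes of the endoplasmic reticulum list higher in 13 of 20, and p53 targets higher in 19 and lower in 1 of 32.

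Genes lower at 10 than at 3 µM included IL33 (6.12, 6.40 and 7.16 CPM with 3 µM, log2 difference -0.73, adjusted p = 5.16e-05), HIF1AN (-0.66), ARMCX2 (-0.65) and CTR9 of the PAF elongation complex (-0.56). DNA replication genes were lower in 29 and higher in 2 of 46, and spindle checkpoint genes lower in 10 of 18. TTK was one of these, at 124, 126 and 139 CPM with 3 µM and 101, 104 and 112 CPM with 10 µM (-0.29, adjusted p = 5.7e-06). Against DMSO, at 102 and 100.3 CPM, the log2 fold change of TTK was 0.36 with 3 µM and 0.068 with 10 µM. No CLK gene differed between the doses past the threshold: CLK1 0.033 ± 0.035 SE (adjusted p = 0.546), CLK2 -0.045 ± 0.053 (0.599), CLK3 -0.015 ± 0.029 (0.753) and CLK4 0.0062 ± 0.0377 (0.929). DSCC1, already at 5.07, 4.81 and 5.51 CPM with 3 µM, did not pass either (-0.14, adjusted p = 0.0903).

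The effect of 10 µM at 24 h, each time against its own DMSO libraries, differed from that at 6 h in 11883 genes (54.0%), 6068 higher (27.6%) and 5815 lower (26.4%) at 24 h. Without a scaling factor between libraries the called genes were 61.3% higher, against 51.1% with it. Among the genes with the largest differences, PRKCI, at 155 and 157 CPM with DMSO and 151, 147 and 151 CPM with 10 µM at 24 h, had a log2 fold change of -0.061 then against -2.53 at 6 h (difference 2.47, adjusted p = 2.39e-19), and DSCC1 had -0.70 against -3.03 (difference 2.33, adjusted p = 3.61e-19). Of the early rises from near silence, SELPLG was smaller at 24 h (1.62 against 6.26, difference -4.64, adjusted p = 2.42e-10), and LTA kept 5.75 (difference -0.18, adjusted p = 0.769). HSPA5 was back at 1016, 1108 and 1050.0 CPM, with DMSO at 1227 and 1193 CPM (difference -1.20, adjusted p = 0.000209).

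The effect of 10 µM on ATF4 targets was higher at 24 h than at 6 h in 20 of 28 and lower in 1, among the former NUPR1 (4.53 against 1.94, difference 2.58, adjusted p = 9.99e-11) and DDIT3 (2.47 against 1.18, difference 1.29, adjusted p = 0.00555). CDKN1A (1.91 against 1.31, adjusted p = 1.13e-09) and GDF15 (3.10 against 2.26, adjusted p = 0.000153) were higher at 24 h too. IL8 at 24 h measured 1.66 and 1.67 CPM with DMSO and 8.98, 11.9 and 8.28 CPM with 10 µM, so the libraries of that group lay closer together, and the difference of its effects did not pass (-0.90, adjusted p = 0.611).

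**Figure D5:**
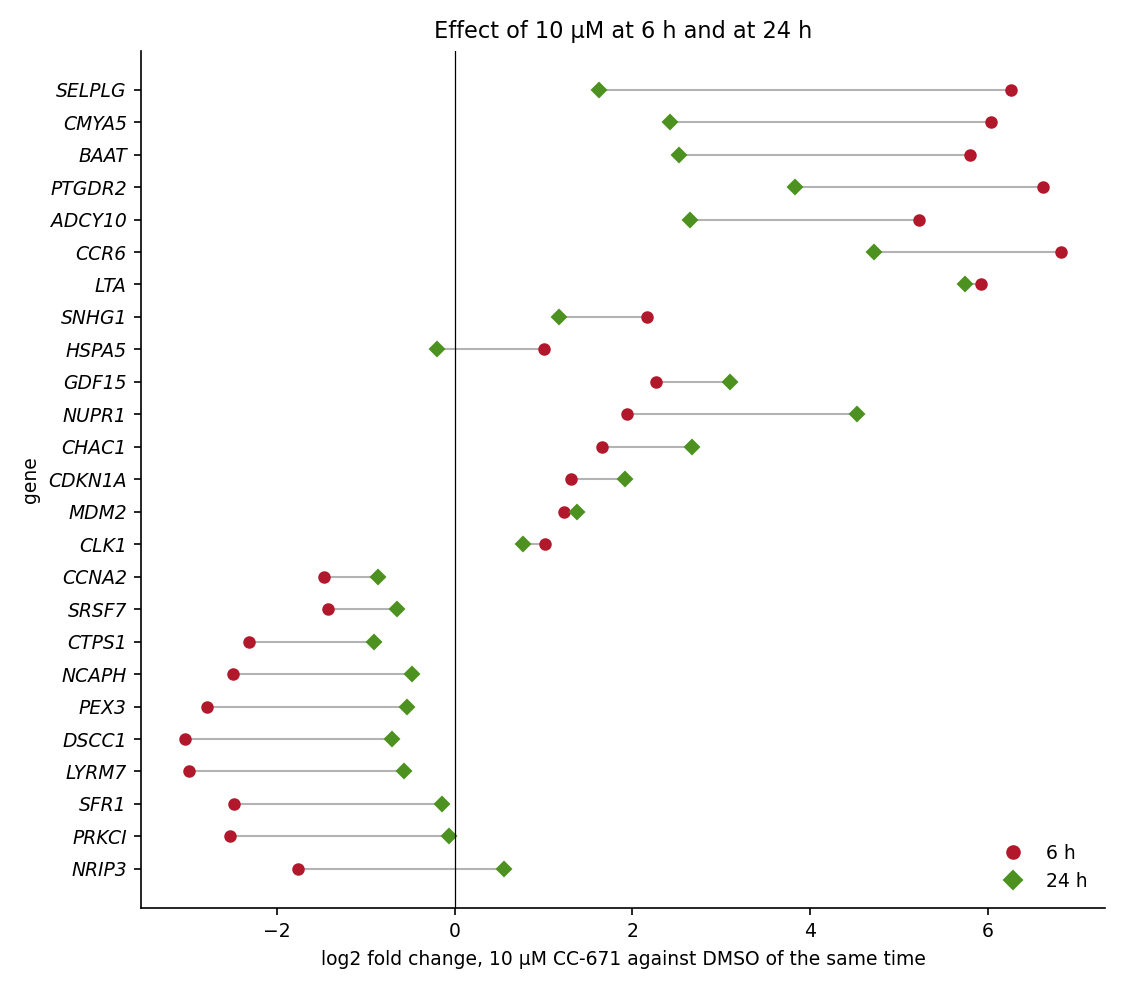
The horizontal axis is the log2 fold change of 10 µM CC-671 against the DMSO libraries of the same time, red circles at 6 h and green diamonds at 24 h, with 1 row per gene. Falls such as DSCC1 and PRKCI lie nearer 0 at 24 h, rises such as SELPLG and CMYA5 are smaller at 24 h, and NUPR1, GDF15 and CHAC1 lie farther right.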

How the data were processed

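Poly-A RNA of CAL51 cultures was made into strand-specific libraries and sequenced as paired reads of 100 bases, per the labels' protocols. The authors deposited 1 table of raw counts of read pairs per gene for each library. STAR and HTSeq are named in the submitters' processing notes, with edgeR and the build hg19 (GRCh37). No version, annotation release, strand setting of the counting or handling of duplicates is stated in the sources used here. The 5 entries that name no gene held 16.9 to 20.2% of pairs in the 5 libraries and were left out of library sizes and tests.

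Groups were taken from the sample titles. Genes passing edgeR's filterByExpr (minimum count 10, minimum total 15) entered 1 quasi-likelihood fit (edgeR 4.0.16, R 4.3.3, TMM scaling) with a mean for each of 6 groups over all 16 libraries. Standard errors are the log2 fold change over the square root of F, and p-values were adjusted by Benjamini and Hochberg over the 22007 genes tested. Another 33503 genes were not tested, and 15346 had an unadjusted p under 0.05 in the comparison with DMSO at 6 h. CPM values are scaled by TMM, and log2 CPM used for spread adds a prior count of 0.5. On simulated data for this comparison (21475 genes) the fit recovered 95.5% of planted 1.5-fold changes and 100% of 2-fold and 4-fold changes, and 3.43% of its calls were false. The planted genes averaged over 1 CPM, and all other genes had equal means in the 6 groups. Most genes changed in the real data, so these rates need not hold there.

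The members and the gene lists were chosen with earlier results of these data known. Genes were named by rule: the largest changes among all genes, among abundant genes and from near silence, up to 6 per list with those that moved against it, the widest among treated libraries, the largest differences by dose and time, and a set followed whatever their values. Other list members, and the marker genes PTPRC, CD14, LYZ, ERBB2, CDH1, KRT7 and CLDN4, were chosen after their values were seen. A few genes that the rule or the lists hold are not reported here. Alternatives were DESeq2 1.42.0, limma-voom (limma 3.58.1), other scalings and filters, a replicate block, the compared groups alone and each library left out. The gene list counts without treated replicate 1 were added after seeing the data.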

Additional observations from a re-analysis of the deposited data

Results flagged for a closer look

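The genes below had the largest differences in each direction between the effects of 10 µM at 24 h and at 6 h. Only genes past an adjusted p of 0.05 in that comparison could be picked, so their passing was fixed by the choice. Higher at 24 h were NUPR1, a stress-induced chromatin protein (log2 difference 2.58, adjusted p = 9.99e-11), PRKCI (2.47, 2.39e-19), LYRM7 (2.42, 2.77e-19), SFR1, a recombination accessory protein (2.34, 2.56e-18), DSCC1 (2.33, 3.61e-19) and NRIP3 (2.31, 3.44e-13). All but NUPR1 had fallen at 6 h, to 29.6, 24.9 and 27.0 CPM from 156 and 158 CPM in the case of PRKCI and to 2.20, 2.13 and 2.02 CPM from 12.2 and 11.5 CPM in that of SFR1. NRIP3 lay below DMSO at 6 h (-1.76) and above it at 24 h (0.55).

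Lower at 24 h were SELPLG (log2 difference -4.64, adjusted p = 2.42e-10), CMYA5 (-3.61, 1.03e-05), BAAT (-3.27, 7.96e-08), PTGDR2 (-2.80, 4.62e-06) and ADCY10 (-2.57, 3.38e-05). Each had risen at 6 h, and BAAT measured 10.2, 10.9 and 8.89 CPM then, with DMSO at 0.142 and 0.215 CPM, against 0.803, 0.913 and 0.812 CPM and 0.151 and 0.138 CPM at 24 h.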

How the results depend on the processing

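The 14870 calls of 10 µM against DMSO at 6 h came to between 11844 and 15188 under the other tests, scalings, filters and fits, and to between 13636 and 14506 with each library left out. No gene called both in the main fit and in an alternative changed direction between them. Genes that lost their call were not checked for direction in this count. The 2-fold counts moved only under the filter for at least 1 CPM in 5 libraries, to 727 rises and 826 falls, which tests fewer genes of low level. Against 3 µM, 5480 calls became 3420 with only these 2 groups in the fit, and 3988 to 5412 with a library left out, the fewest without 3 µM replicate 3. For the difference of the 24 h and 6 h effects the counts with a library left out were 10708 to 11875, of 11883. The 37 genes of wide spread became 13 with a mean of at least 5 CPM required, a filter that keeps fewer genes. With each library left out the log2 fold change of MTND4P12 ran from -0.716 to 0.65 and that of MYC from -0.0953 to 0.23, the lowest and the reversed value in both being that without treated replicate 1, and neither had passed with all libraries. Deviations of same-numbered DMSO and treated libraries from their group means correlated at 0.057 and -0.035. The deviations of 2 DMSO libraries mirror each other, so these values cannot settle whether the replicate numbers pair the libraries. With a replicate block 14657, 5212 and 11784 genes were called in the 3 comparisons. Of the values of named genes under alternatives, 3006 kept direction and side of the threshold, 52 lost the call, 5 gained it and 2 reversed. With 2 DMSO libraries, the spread of that group rests mostly on the other groups, and depth limits the fold changes of genes under 1 CPM.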
